A study of Mus musculus with 6 samples.

Results

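The genes described here are 10 members of the MHC class II presentation pathway, chosen by name: H2-Aa, H2-Ab1, H2-Eb1, Cd74, H2-DMa, H2-DMb1, H2-DMb2, H2-Oa, Ciita and Cd86. All 10 were found among the 39527 genes of the deposited comparison, and all 10 were among the 14961 genes that carried an adjusted p-value. The comparison is of group 2 innate lymphoid cells (ILC2s), sorted from the lungs of mice that had received IL-33 over 4 days. IL-33 is a cytokine released by damaged epithelium and a main activator of ILC2s. The labels give 3 samples from R5/+LKB1f/f mice (KO), which carry floxed alleles of LKB1, and 3 samples from R5/+ mice (WT), so that both groups share the R5/+ genotype. Cells of 3 to 4 mice were pooled for each sample. The labels name neither the cells in which the floxed alleles recombine nor the age of the mice.

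MHC class II molecules are pairs of an alpha and a beta chain that display peptides from ingested or membrane proteins to CD4+ T cells. New chains are held by the invariant chain Cd74, whose last fragment sits in the peptide groove until the exchange factor H2-DM removes it, and H2-O restrains H2-DM. The transactivator Ciita, recruited by RFX, NF-Y and CREB proteins to the X and Y boxes of class II promoters, sets the transcription of most of these genes, and Cd86 on the same cell gives the costimulatory signal through CD28. Activated ILC2s are known to express class II and to present antigen to T cells, at lower levels than dendritic cells and B cells.

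The values are the authors' own: for each gene, 1 log2 fold change, its standard error and 1 mean normalized count over the libraries of their fit. Values of single samples were not used, since the per-sample columns matched no label, and whether groups overlapped could not be shown. Neither the identity nor the number of the libraries in the authors' fit is stated in the sources used here. Neither the labels nor the column names say which genotype was the numerator, so each sign is given as deposited and no gene is assigned to KO or WT. Stk11, which encodes LKB1, had a log2 fold change of -1.34 ± 0.30 (SE), from the authors' deposited table, with an adjusted p of 0.000103. A negative sign below is therefore the sign shared with the floxed gene.

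The labelled cell type was checked against its markers, with means from the authors' deposited table divided by the exonic length of a gene's protein-coding transcripts (of all transcripts where it has none) in the GENCODE M21 annotation of mm10. Gata3, the ILC2 lineage factor, stood at 12977 normalized counts per kb of exon, the growth factor Areg at 22297 and the IL-33 receptor Il1rl1 at 2457. The ILC2 markers ran from 135 for Thy1 and 513 for Il13 up to the value of Areg. Markers of other cell types spanned wide ranges of normalized counts per kb. The dendritic cell markers ran from 1.64 for Clec9a to 112 for Xcr1 and 116 for Zbtb46, and the B and plasma cell markers from 1.14 for Pax5 to 578 for Cd79b and 674 for Jchain. The macrophage and monocyte markers ran from 1.60 for Fcgr1 to 3396 for the lysozyme gene Lyz2. Those of alveolar type 2 cells ran from 39.3 for Lamp3 to 9589 for the surfactant gene Sftpc. T cell markers ran from 2.08 for Cd8a to 1569 for Cd3g.

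Of the 10 class II genes, 7 passed an adjusted p of 0.05 with a negative sign and 1 with a positive sign, while Ciita and Cd86 did not pass. Over all tested genes, 13.5% passed with a negative and 11% with a positive sign (24.5% together). The median log2 fold change of the 10 genes was -1.14, beside -0.01 over all tested genes. The 7 negative genes were the peptide-binding chains, the invariant chain and all subunits of H2-DM in the list, and the positive gene was the H2-O chain H2-Oa. At least 2-fold and negative were 5 of the 10 genes, beside 4.12% of all tested genes. In bulk samples a different share of class II-bearing cells and a different level of class II RNA per cell cannot be told apart.

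**Figure D1:**
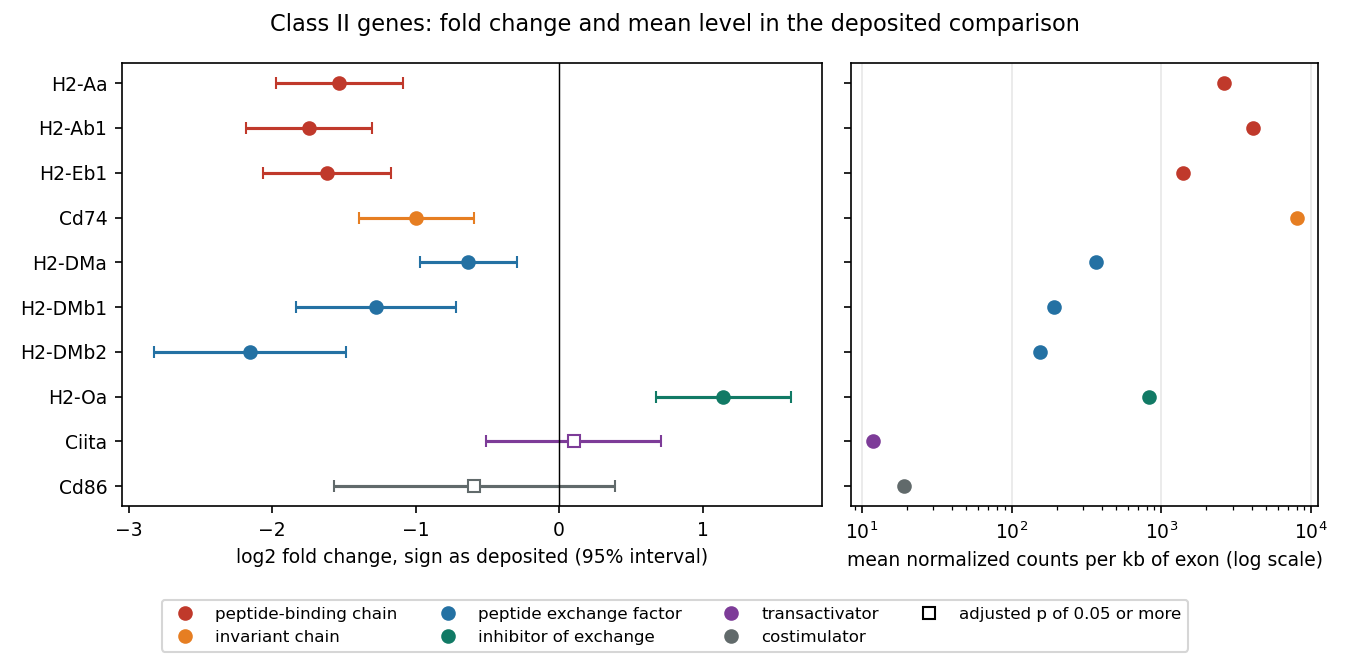
Left, log2 fold change of each class II gene with its sign as deposited and its 95% interval, coloured by role, with open squares for genes whose adjusted p was 0.05 or more. Right, mean normalized counts per kb of exon on a log scale. 7 genes lie to the left of 0 with their whole interval, H2-Oa lies to the right, and the intervals of Ciita and Cd86 cross 0.

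The 3 peptide-binding chains had nearly equal values. H2-Aa, the alpha chain of I-A, had a log2 fold change of -1.53 ± 0.23 (SE), from the authors' deposited table, with an adjusted p of 1.06e-09. Its partner H2-Ab1, the beta chain of I-A, had -1.74 ± 0.22 (SE) with adjusted p = 1.16e-12 in the authors' deposited table. The beta chain of I-E, H2-Eb1, had -1.62 ± 0.23 (SE) and adjusted p = 2.05e-10 in the authors' deposited table. On a linear scale these are ratios of 0.346 (95% interval 0.255 to 0.470), 0.299 (0.220 to 0.405) and 0.326 (0.239 to 0.445) in the order given. The intervals of all 3 overlapped one another. By size of p, H2-Ab1 stood at rank 80, H2-Eb1 at rank 113 and H2-Aa at rank 150 of the 14961 tested genes.

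The alpha chain of I-E is a pseudogene in some mouse strains. H2-Ea-ps had a mean of 1.31 normalized counts in the authors' deposited table and entered no adjustment. The other chain gene next to H2-Eb1, H2-Eb2, had a mean of 9.69 in the authors' deposited table and was not adjusted either.

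Cd74, the invariant chain, was the most abundant of the 10 genes per length. Its mean was 11427 normalized counts in the authors' deposited table, or 8070 per kb of exon. The log2 fold change of Cd74 was -0.99 ± 0.21 (SE) in the authors' deposited table (adjusted p = 2.85e-05), a linear ratio of 0.502 (95% interval 0.380 to 0.664). Its interval overlapped those of all 3 peptide-binding chains.

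The subunits of H2-DM, which exchange the invariant chain fragment for peptide, were negative to different extents. H2-DMa, the alpha subunit, had -0.63 ± 0.17 (SE) with adjusted p = 0.00209 in the authors' deposited table. The beta subunit H2-DMb1 had -1.28 ± 0.29 (SE) with adjusted p = 0.000128 in the authors' deposited table. H2-DMb2, the second beta subunit gene of the mouse, had the most negative fold change of the 10 genes, -2.15 ± 0.34 (SE), and adjusted p = 1.79e-08 in the authors' deposited table. Among all tested genes, 129 (0.86%) had a more negative value than H2-DMb2. The interval of H2-DMa, -0.97 to -0.30, overlapped that of H2-DMb1 (-1.84 to -0.72) but not that of H2-DMb2 (-2.82 to -1.49), and the intervals of H2-DMb1 and H2-DMb2 overlapped. No test of these differences was possible, because the covariance between genes over the same libraries is not part of the values used.

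H2-DMb1 and H2-DMb2 are neighbouring paralogs, and reads from the stretches they share could be counted for either, which leaves their separate values uncertain to that extent. Their reference transcripts of 1404 and 1424 bases were identical at 93.9% of 1255 aligned positions, with 318 more positions in gaps. Of all 50-base stretches of the H2-DMb1 transcript, 27.23% also stood in another gene's transcript, and for H2-DMb2 32.8% did. At 100 bases these shares were 13.72% and 13.51%. The sources used here do not state how reads that match both genes were assigned. The transcripts of H2-Aa, H2-Ab1, H2-Eb1, H2-DMa, Cd74 and Cd86 shared no 50-base stretch with any other annotated gene.

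H2-Oa, the alpha chain of the H2-DM inhibitor H2-O, carried the opposite sign. Its log2 fold change was 1.14 ± 0.24 (SE) with adjusted p = 3.59e-05 in the authors' deposited table, a linear ratio of 2.21 (95% interval 1.60 to 3.06). Among tested genes, 4.94% had a more positive value. Its interval overlapped that of Ciita and none of the other 8 class II genes. The partner chain gene H2-Ob had -0.34 ± 0.26 (SE) and adjusted p = 0.369 in the authors' deposited table. Over all its annotated transcripts H2-Oa has 1407 exonic bases, of which 321 are shared with the antisense gene BC051537 (its level per kb rests on the 1088 bases of protein-coding transcripts). BC051537 had 8.53 normalized counts and a log2 fold change of 1.58 ± 0.79 (SE), from the authors' deposited table. Without strand, reads from these overlapping exons could not be told apart, and the sources used here do not state how strand was handled.

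Ciita, the transactivator, did not pass. Its log2 fold change was 0.10 ± 0.31 (SE) at a mean of 97.7 normalized counts in the authors' deposited table, with an adjusted p of 0.857. The 95% interval of Ciita ran from -0.51 to 0.71 and did not overlap the intervals of H2-Aa, H2-Ab1, H2-Eb1, Cd74, H2-DMb1 and H2-DMb2. It overlapped the intervals of H2-DMa, H2-Oa and Cd86. At 8260 exonic bases, Ciita stood at 11.8 normalized counts per kb, the lowest level of the 10 genes, and 17.5% of 12996 tested protein-coding genes were lower.

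Cd86, the CD28 ligand, had the fewest counts. Its mean was 48.4 normalized counts and its log2 fold change -0.59 ± 0.50 (SE) in the authors' deposited table, with an adjusted p of 0.429. The 95% interval of Cd86, from -1.57 to 0.39, held 0 and, near its lower end, the fold change of H2-Aa.

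**Figure D2:**
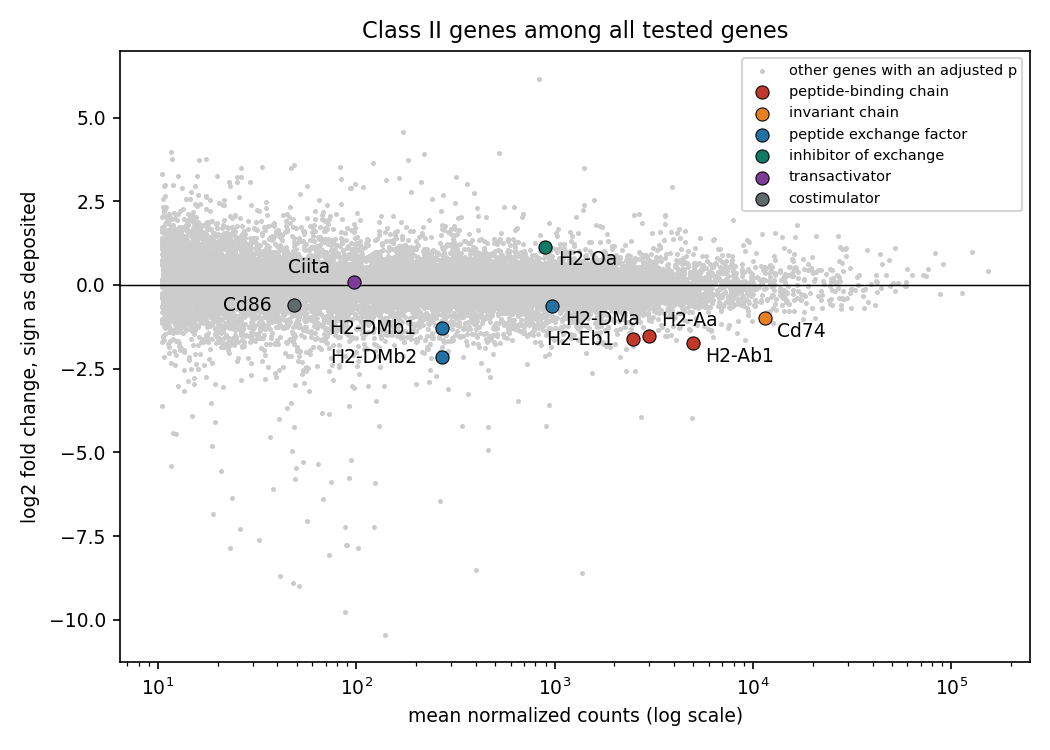
Log2 fold change with its sign as deposited against mean normalized counts on a log scale for every gene with an adjusted p (grey), with the 10 class II genes coloured by role. H2-Aa, H2-Ab1 and H2-Eb1 lie together between 2495 and 4959 counts, near the lower edge of the cloud at that abundance.

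Levels between genes were compared per kb of exon. The order was Cd74 (8070 normalized counts per kb), H2-Ab1 (4091), H2-Aa (2634), H2-Eb1 (1389), H2-Oa (823), H2-DMa (364), H2-DMb1 (192), H2-DMb2 (156), Cd86 (19.1) and Ciita (11.8). Among tested protein-coding genes, 99.1% stood below Cd74 and 97.9% below H2-Ab1, while 75.3% stood below H2-DMa. Cd74 had 1.97 times the level of H2-Ab1 per kb, and H2-Ab1 had 11.2 times that of H2-DMa and 346 times that of Ciita. H2-Oa was more abundant per kb than H2-DMa, whose level was 0.443 of that of H2-Oa. These ratios depend on the length used, here 2668 bases for H2-DMa and 8260 for Ciita. Their reference transcripts are shorter, at 1658 and 6007 bases, and would put both genes higher per kb. The spread of a level over samples was not available, so that neighbours in this order were not tested.

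The standard errors of most class II genes were wide for their abundance. H2-Aa, H2-Ab1 and H2-Eb1 had errors of 0.225, 0.224 and 0.229 in the authors' deposited table, while the median error of genes with 0.5 to 2 times their mean was 0.142, 0.140 and 0.143. Of those genes of similar mean, 95.1%, 94.5% and 95.2% had a smaller error. For Cd74 this share was 91.2%, for H2-Oa 93.2% and for H2-DMb2 92.9%. H2-DMa (65.6%), Cd86 (60.6%) and Ciita (43.5%) were closer to the middle.

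**Figure D3:**
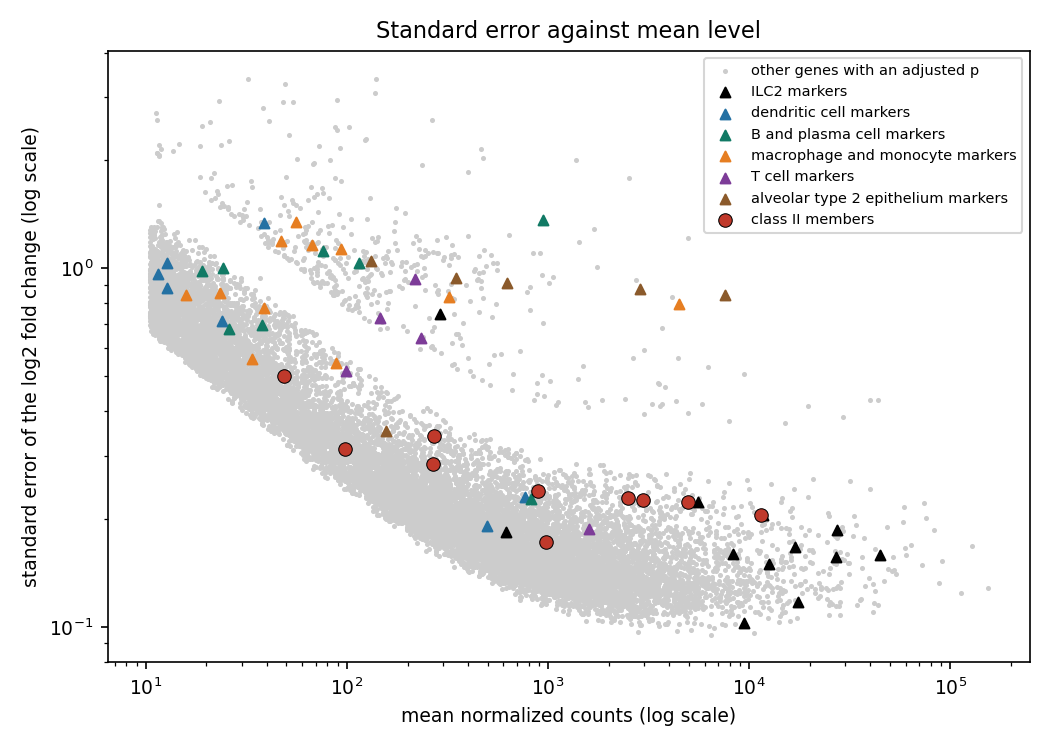
Standard error of the log2 fold change against mean normalized counts, both on log scales, for all tested genes (grey), the class II genes (red circles) and the markers of ILC2s and of 5 other cell types (triangles). H2-Aa, H2-Ab1, H2-Eb1 and Cd74 lie along the upper edge of the main band at errors of 0.206 to 0.229, and Lyz2 and Sftpc lie in a separate upper cloud near 0.8.

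Markers of other cell types were measured beside these genes. Their calls stand beside 13.5% negative and 11% positive over all tested genes. Of 10 dendritic cell markers, 7 were tested, 2 were negative and 0 positive at an adjusted p below 0.05, and their summed mean was 1388 normalized counts. Zbtb46, a factor of classical dendritic cells, had -1.03 ± 0.23 (SE) and made up 771 of these counts in the authors' deposited table. Batf3, at a mean of 12.7, had -3.01 ± 1.04 (SE) in the authors' deposited table. The other tested markers, Flt3 (-0.32), Itgax (0.21), Xcr1 (0.32), Cd209a (-0.21) and Fscn1 (-1.31), missed the threshold in the authors' deposited table. Clec9a, Siglech and Clec10a stood below 10 counts. Flt3 and Itgax stood at 23.8 and 38.9 counts, far below Zbtb46, while Xcr1 stood at 499. Which cells the Zbtb46 counts came from was not tested.

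Of 9 B and plasma cell markers, 8 were tested, 2 negative and 0 positive, with a summed mean of 2074 normalized counts. For this list and the next ones, the shares over all tested genes were again 13.5% negative and 11% positive. Cd79b, a B cell receptor subunit, had -0.88 ± 0.23 (SE) at 827 counts, and Jchain had -3.57 ± 1.37 (SE) at 939 counts in the authors' deposited table. Cd79a (-0.61 ± 1.04) had a wide error in the authors' deposited table and missed the threshold. Of 12 macrophage and monocyte markers, 11 were tested and 1, C1qa (-2.63 ± 0.78 in the authors' deposited table), was negative, while 0 were positive and Lyz2 (-0.75 ± 0.80) did not pass. Of the 6 alveolar type 2 markers 0 passed, also at an unadjusted p below 0.05, with 5 below 0 and a median of -1.20, and Sftpc had -1.18 ± 0.84 in the authors' deposited table. Of 6 T cell markers, 5 were tested and 1, Cd3g (-0.66 ± 0.19 in the authors' deposited table), was negative. Cd4 had 0.37 ± 0.94 in the authors' deposited table.

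ILC2 markers went both ways, with 3 positive and 3 negative of 12, beside 11% and 13.5% of all tested genes. Gata3 (0.63 ± 0.16), Icos (0.54 ± 0.15) and the IL-25 receptor gene Il17rb (0.49 ± 0.10) were positive in the authors' deposited table. Il13 (-1.06 ± 0.18), Klrg1 (-0.44 ± 0.12) and Thy1 (-1.98 ± 0.75) were negative in the authors' deposited table. The part of other cell types in the class II values was not tested. Per kb, H2-Ab1 stood at 4091 normalized counts, below Sftpc (9589) and above Lyz2 (3396), Sftpa1 (1002), Jchain (674), Cd79b (578) and Zbtb46 (116). Sftpc, Lyz2 and Sftpa1 did not pass. Fold changes below and above 0 numbered 5 and 2 for tested dendritic cell markers and 7 and 1 for B and plasma cell markers. They numbered 8 and 3 for macrophage and monocyte, 3 and 2 for T cell and 5 and 1 for alveolar type 2 markers. Over all tested genes they numbered 7537 and 7424.

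The class II genes of chromosome 17 lie within 224.3 kb, and genes of both signs stand side by side there. On mm10 the stretch ran from 34092340 to 34316674 of chromosome 17, from H2-Oa to H2-Eb1, and held 13 tested genes. Between the class II genes stand Psmb8 and Psmb9, subunits of the immunoproteasome, Tap1 and Tap2, the peptide transporter of the class I pathway, and Brd2, a chromatin reader. Of the 6 tested genes of the stretch that are not among the 10, Psmb8 was negative (-0.40 ± 0.14), and Tap2 (0.31 ± 0.10) and Brd2 (0.34 ± 0.13) were positive in the authors' deposited table. Shares over all tested genes were 13.5% negative and 11% positive. In the authors' deposited table Psmb9 (-0.32 ± 0.13, adjusted p = 0.0522), Tap1 (-0.05 ± 0.14) and H2-Ob missed the threshold. The fold changes of these 6 genes, which include the class II chain gene H2-Ob, lay between -0.40 and 0.34. Those of the 7 genes of the stretch that are among the 10 lay between -2.15 and 1.14. The remaining genes lie elsewhere, Cd74 at 60803848 to 60812652 of chromosome 18, Ciita at 10480059 to 10528418 and Cd86 at 36603869 to 36666081 of chromosome 16. Exons of H2-DMa and Brd2 overlap by 360 bases on opposite strands. Without strand, reads from these bases could not be told apart either, and Brd2 had the higher mean (5355 normalized counts, beside 972 for H2-DMa).

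**Figure D4:**
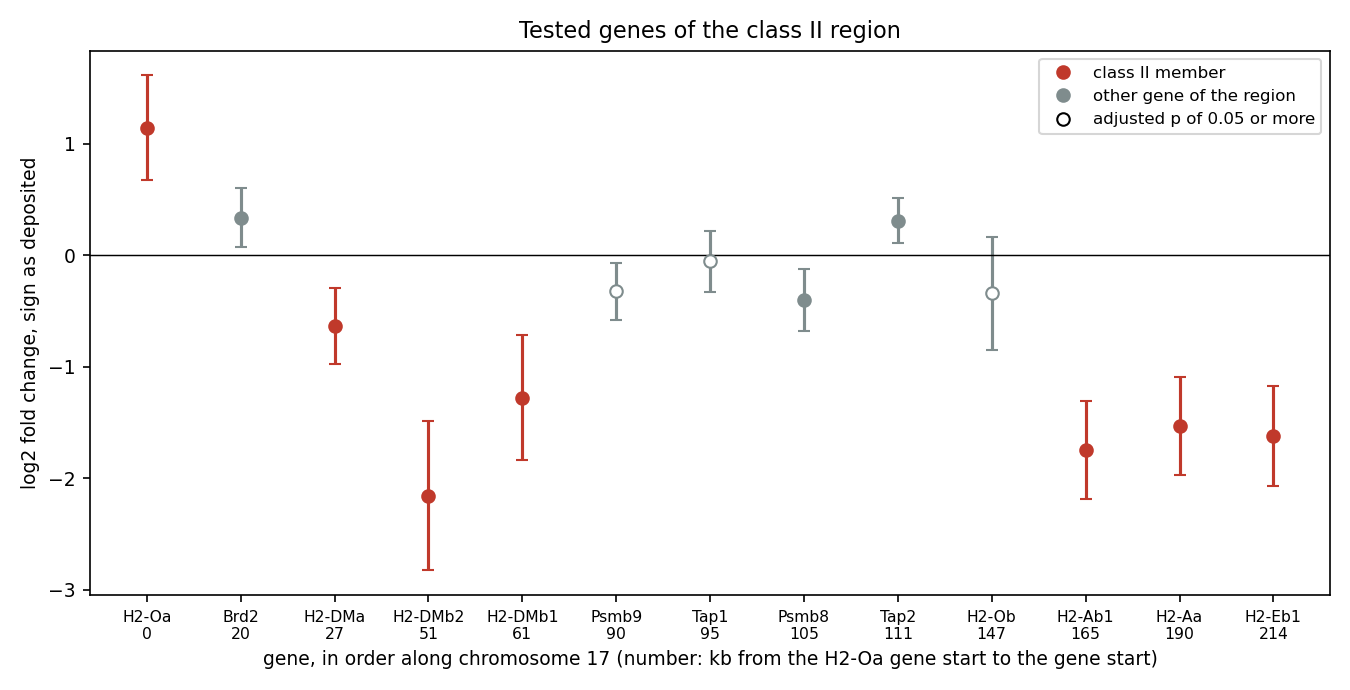
Log2 fold change with its sign as deposited and its 95% interval for the 13 tested genes of the class II region, in their order along chromosome 17, with the distance of each gene's start from that of H2-Oa in kb under its name. Class II genes are red, other genes grey, and open circles mark an adjusted p of 0.05 or more. H2-DMb1 and H2-DMb2 lie far below Psmb9 and Tap1, their neighbours on one side.

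Promoter windows from RefSeq on GRCm38 (mm10), from 250 bases before to 50 bases after each start, were held for 6 of the 10 genes, with 2 starts for H2-DMa. They were searched on both strands for the X box core CCTNGCAAC, in which N is any base, and the Y box ATTGG. No window of the class II genes held the X box core without a mismatch, beside 1.74% of all 32851 windows. With 1 mismatch allowed, 6 of the 7 windows held it, at least 1 for each of the 6 genes, beside 22.8% of all windows. For H2-DMa and H2-DMb2 the match was on the opposite strand. The Y box stood in 6 of the 7 windows, at least 1 for each of the 6 genes, and in 37.4% of all windows. For H2-DMa the X box match and the Y box stood in different windows.

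A spacing was searched after the matches had been seen. In H2-Aa, H2-DMb1 and H2-Oa the X box core with 1 mismatch was followed by the Y box after 28 bases, and in H2-Eb1 after 27. An X box core with at most 1 mismatch followed by a Y box after 10 to 35 bases on the same strand stood in 0.658% of all windows. In H2-DMb2 the letters 28 bases before the Y box, CCTATTAAC, had 2 mismatches to the core. The 150 bases before the start are shown for these 5 genes because 3 negative genes and the positive H2-Oa carry this arrangement and H2-DMb2 comes near it. Each runs 5′ to 3′ on the gene's strand, with capitals for the X box core (at most 1 mismatch) and the Y box on that strand.
H2-Aa, chr17:34287824-34287973, minus strand: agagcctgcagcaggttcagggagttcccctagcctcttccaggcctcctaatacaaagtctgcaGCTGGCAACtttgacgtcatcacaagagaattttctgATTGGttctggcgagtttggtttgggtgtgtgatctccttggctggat
H2-Eb1, chr17:34305717-34305866, plus strand: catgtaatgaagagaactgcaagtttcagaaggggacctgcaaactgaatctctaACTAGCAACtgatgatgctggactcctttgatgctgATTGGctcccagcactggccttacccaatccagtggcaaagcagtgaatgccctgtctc
H2-DMb1, chr17:34153041-34153190, plus strand: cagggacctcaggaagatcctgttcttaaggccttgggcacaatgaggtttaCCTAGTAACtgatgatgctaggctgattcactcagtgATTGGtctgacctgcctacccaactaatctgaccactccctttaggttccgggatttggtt
H2-DMb2, chr17:34145099-34145248, plus strand: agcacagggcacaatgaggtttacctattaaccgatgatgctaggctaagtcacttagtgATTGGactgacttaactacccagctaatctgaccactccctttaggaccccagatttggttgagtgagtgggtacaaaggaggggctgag
H2-Oa, chr17:34092229-34092378, plus strand: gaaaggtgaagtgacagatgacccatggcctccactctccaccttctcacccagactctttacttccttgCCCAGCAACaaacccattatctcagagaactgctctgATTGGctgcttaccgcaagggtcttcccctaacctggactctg
H2-Oa held this arrangement at the same spacing as H2-Aa, while its fold change had the opposite sign. A match describes the letters of the window and shows no binding.

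The proteins that act on the X and Y boxes with Ciita showed small values of both signs. Of 7 genes, 2 were negative and 1 positive, beside 13.5% and 11% of all tested genes. Rfxap (-0.48 ± 0.16) and Nfyb (-0.52 ± 0.17), subunits of the RFX and NF-Y complexes, were negative in the authors' deposited table. Rfx5, the DNA-binding subunit of RFX, was positive at 0.62 ± 0.22 (SE) in the authors' deposited table. Rfxank, Nfya, Nfyc and Creb1 did not pass.

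Of 7 genes of the interferon-gamma route that induces Ciita, 3 were positive and 0 negative, and 4 did not pass. Their median was 0.36 and all 7 values lay above 0, as did 7424 of the 14961 values of all tested genes, of which 11% passed with a positive sign. The receptor chain Ifngr1 had 0.54 ± 0.12 (SE), the kinase Jak1 0.46 ± 0.13 and the transcription factor Irf1 0.36 ± 0.14 in the authors' deposited table. The feedback inhibitor Socs1 (0.45 ± 0.18, adjusted p = 0.0511) missed the threshold in the authors' deposited table, as did Ifng itself (0.36 ± 0.66) at a mean of 24.5 counts.

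Among 12 genes of antigen and invariant chain processing, 4 were negative and 1 positive, beside 13.5% and 11% of all tested genes. The median of the 12 was -0.03. Lgmn, the asparaginyl endopeptidase that cuts antigens and the invariant chain, had -1.51 ± 0.21 (SE) with adjusted p = 4.40e-11 in the authors' deposited table, a fold change close in size to that of H2-Aa. Ifi30, the lysosomal thiol reductase GILT, had -0.71 ± 0.23 (SE), and the cathepsins Ctsc and Ctsh had -0.48 ± 0.19 and -1.37 ± 0.51 in the authors' deposited table. Ctsl was positive at 0.62 ± 0.21 (SE) in the authors' deposited table. Ctss, the cathepsin that completes invariant chain cleavage in dendritic cells and B cells, had -0.04 ± 0.14 in the authors' deposited table, with a 95% interval of -0.31 to 0.23.

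The ubiquitin ligases that remove class II from the surface, Marchf1 and Marchf8, did not pass. Marchf8 had 0.16 ± 0.18 (SE) and Marchf1, at 15.3 counts, 0.89 ± 1.12 in the authors' deposited table.

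Of 9 other ligands that signal to T cells, 2 were negative and 0 positive. Tnfsf4, which encodes OX40 ligand, had -1.61 ± 0.28 (SE) with adjusted p = 6.04e-07 in the authors' deposited table, and the CD27 ligand Cd70 had -1.54 ± 0.40 with an adjusted p of 0.00102. Cd80, the other CD28 ligand, had -1.32 ± 0.65 (SE) at 26.8 counts and missed the threshold in the authors' deposited table (adjusted p = 0.125). Icosl (0.30 ± 0.26) and Cd274, which encodes PD-L1 (-0.03 ± 0.16), missed the threshold in the authors' deposited table. Over the 40 genes of these lists, 38 were tested, of which 8 were negative and 5 positive, with a median of -0.0099. Among all tested genes, 13.5% passed with a negative and 11% with a positive sign.

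**Figure D5:**
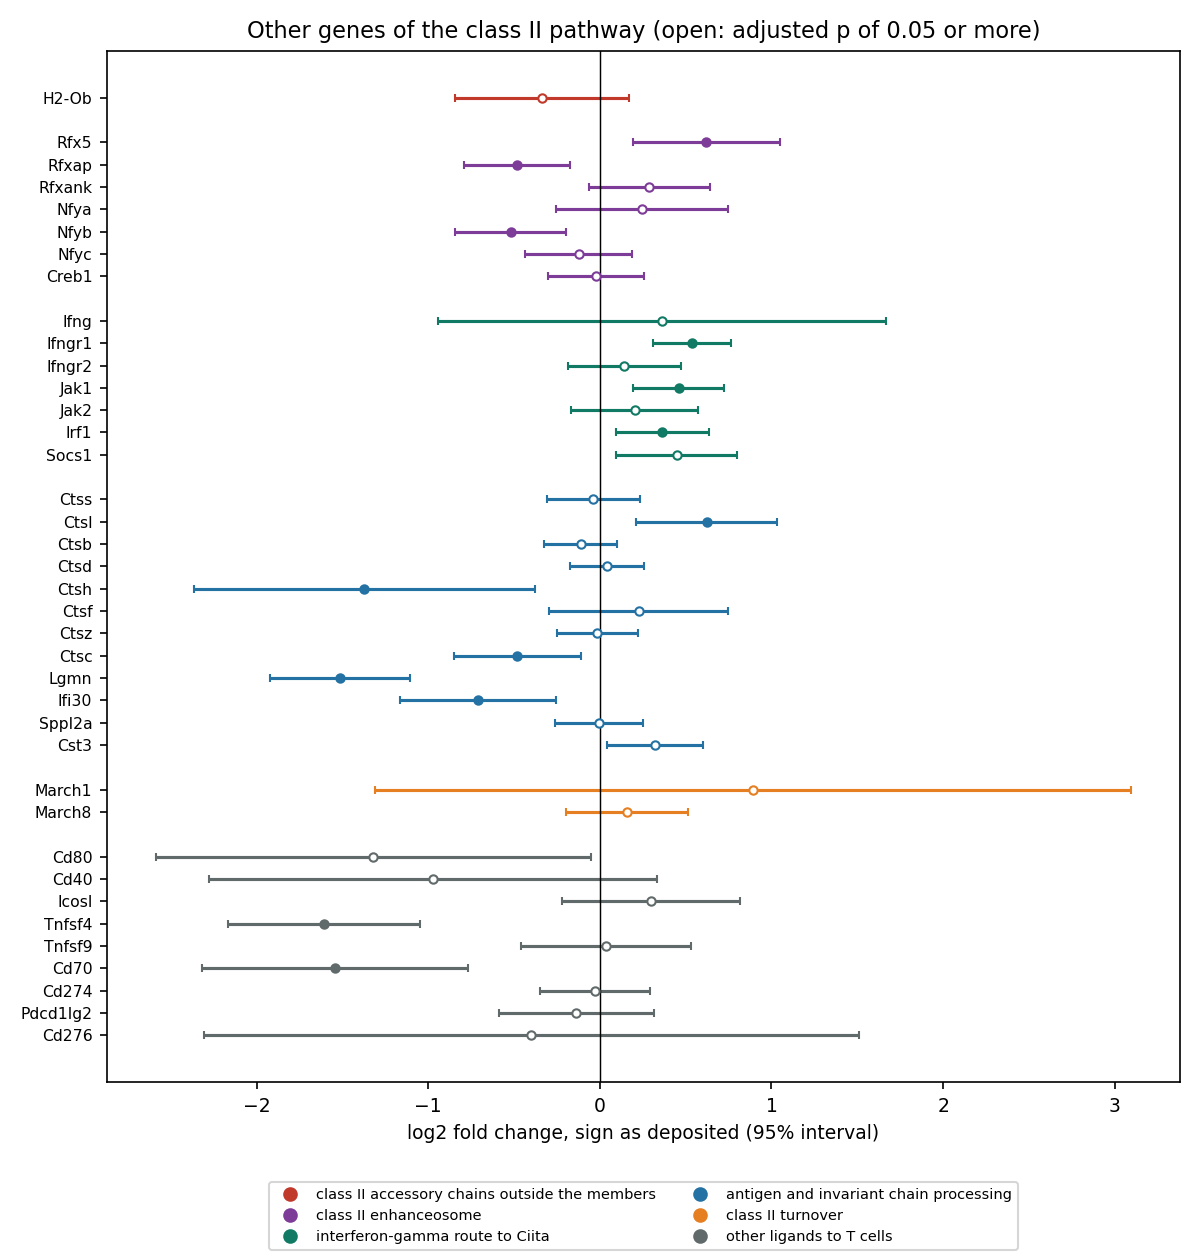
Log2 fold change with its sign as deposited and its 95% interval for the 38 tested genes of the other class II pathway lists, coloured by list, with open circles for an adjusted p of 0.05 or more. Lgmn, Tnfsf4 and Cd70 lie between -1.61 and -1.51, and the genes of the interferon-gamma route lie at or above 0.14.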

How the data were processed

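RNA sequencing was deposited as 1 gene-level comparison of KO and WT lung ILC2s, with 3 samples of each in the labels. Per the labels' protocols, a SMART-Seq HT kit gave the full-length cDNA and a TruePrep V2 kit the libraries. The submitters' processing notes name mm10, HISAT2 and Cufflinks. Counting tool, annotation and the libraries compared are not given in the sources used. The columns hold, per the file headers, a signal (the mean of normalized counts), a log2 fold change and its error. The authors also deposited a score, its p-value and the adjusted p. The score equalled the ratio of fold change and error to within 2.41e-07, and the adjusted p a Benjamini-Hochberg adjustment of 14961 p-values to within 7.56e-07. Depth per sample was not used, and precision is that of the deposited error. Because 12 further columns under 6 names matched no label, the planned fits on per-sample values, leaving out replicates included, were replaced by the authors' comparison.

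The call threshold was an adjusted p of 0.05, with 95% intervals from a normal distribution. No label says that the pools came from separate experiments, and p-values measure only the spread between libraries. The members and lists were chosen with earlier results of these data known. Some genes of the pathway and marker lists are not reported here and enter no list count. All 10 members were named, with Stk11, the called genes of each pathway list and of the class II region, and the most abundant and up to 4 called genes of each marker list. Other genes named were chosen after their values were seen. Coordinates and exonic lengths came from GENCODE M21 on mm10, which held 39191 of the gene identifiers (99.15%). Dates stood in place of 27 symbols and were matched by identifier. The adjustment and call steps used for the alternatives were tested on simulated data. The tools were statsmodels 0.14.6, scipy 1.17.1, matplotlib 3.10.9, numpy 2.4.6 and pandas 2.3.3 in Python 3.11.15.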

Additional observations from a re-analysis of the deposited data

How the results depend on the processing

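The count of 7 negative class II genes was kept at an adjusted p of 0.01 or 0.1, without the filter on low values, after centring on all tested genes or on the most abundant 25% (medians -0.01 and -0.04), and after removal of length and GC trends. It was 5 under a Holm adjustment, which H2-DMa and H2-DMb1 missed, and 5 when at least a 2-fold difference was required. H2-Oa was positive under all of these. Ciita, which passed under none, had -0.0915 after removal of length and GC trends. Of 70 single-gene values under 7 settings, 67 kept their sign and call. The other pathway genes depended more on the setting. Negative genes numbered 3 at 0.01, 2 under Holm, 5 without length and GC trends, 4 at 2-fold or more, 6 without the filter, 7 after centring on the most abundant 25%, and 8 at 0.1 or after centring on all tested genes, against 8. Positive genes numbered 2 at 0.01, 3 without the filter, 0 under Holm, 0 at 2-fold or more and 4 without length and GC trends, but 7 at 0.1, 6 after centring on all tested genes and 7 after centring on the most abundant 25%, against 5. The cause was not tested. Over all tested genes, 13.5% were negative and 11% positive at an adjusted p below 0.05. Negative and at least 2-fold were 4.12%. No such share is given here for the other settings, or for positive genes at 2-fold or more. Whether the counts of class II and other pathway genes there exceed the share over all tested genes was therefore not tested. Promoter windows with the X box core numbered 0 without a mismatch, 6 with 1 mismatch and 4 with the spacing, which was chosen after seeing the data.

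No paired analysis was possible because the values used are 1 comparison with no per-sample values. For the same reason DESeq2 against edgeR scaling, the count filter and leaving out each replicate were not run, and whether 1 library carries a value was not tested. Low counts limit Cd86, Cd80 and most dendritic cell markers.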
